A study of Mus musculus with 2 samples.

Results

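The 10 genes described here are the usual readouts of epithelial-mesenchymal transition: Epcam, Cdh1, Cdh2, Vim, Fn1, Zeb1, Zeb2, Snai2, Twist1 and Hmga2. They are 10 of the 32285 genes in the count matrices, taken by name, and their UMIs (unique molecular identifiers, each standing for 1 captured RNA molecule) were read in the tumour cells of mouse pancreatic tumours, with fibroblasts of the same tumours as reference. The tumours grew from KPC pancreatic cancer cells implanted orthotopically, that is, into the pancreas, and were taken at day 21. The host mice of the control group carried Porcnfl/fl without Cre, and those of the knockout group were Csf1r-Cre;Porcnfl/fl, littermates in which Cre under Csf1r removes Porcn, the enzyme that lets cells secrete WNT proteins, from macrophages. KPC cells are a mouse pancreatic cancer line; they were implanted rather than arising in the hosts, so the labelled genotypes are those of the hosts. Csf1r marks macrophages and is also active in other myeloid cells. Each group was 5 mice pooled into 1 library of 3′ end single-cell RNA-seq. With 1 library per group no difference between the groups can be tested, mice cannot be told apart, and every interval below is a 95% interval that covers counting error only.

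Epithelial cells hold together through E-cadherin (Cdh1) and the adhesion protein Epcam. In epithelial-mesenchymal transition, repressor transcription factors of the Zeb, Snail and Twist families bind E-box motifs at epithelial genes, E-cadherin gives way to N-cadherin (Cdh2), and cells gain the intermediate filament vimentin (Vim) and secrete fibronectin (Fn1). Hmga2, a chromatin protein held down by let-7 microRNAs in most adult tissues, is known to act upstream of these factors in carcinoma cells. Pancreatic ductal tumours, and KPC lines among them, are known for cells that hold parts of both programmes at once.

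The bases just before the start of Epcam and Vim are shown because Epcam was found in few of the tumour cells and Vim in nearly all of them. Both are from RefSeq on build GRCm38.p6, read 5′ to 3′ on the plus strand. Epcam is chr17:87635729-87635978 and Vim is chr2:13574061-13574310, each 250 bases. Capitals mark the E-box CAGGTG or its reverse complement CACCTG, searched on both strands.
Epcam: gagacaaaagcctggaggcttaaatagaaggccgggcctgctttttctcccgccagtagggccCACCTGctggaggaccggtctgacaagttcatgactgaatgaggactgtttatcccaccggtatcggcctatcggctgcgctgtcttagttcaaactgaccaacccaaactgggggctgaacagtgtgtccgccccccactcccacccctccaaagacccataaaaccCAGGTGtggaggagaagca
Vim: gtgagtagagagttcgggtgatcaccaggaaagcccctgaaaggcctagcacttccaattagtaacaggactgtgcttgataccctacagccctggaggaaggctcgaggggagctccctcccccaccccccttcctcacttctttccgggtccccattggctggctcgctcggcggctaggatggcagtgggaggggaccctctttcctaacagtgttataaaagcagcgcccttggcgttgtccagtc

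The Epcam window held 2 E-boxes, which begin 187 and 19 bases before the start. The Vim window held none, and neither did those of Twist1, Hmga2 and Zeb2, the other members with an entry in the table used. Of 32851 windows of the same length, 17.2% held at least 1 such E-box and 2.06% held 2 or more. The Vim window lies before the RefSeq start, which is inside the Vim gene as GENCODE draws it. A match describes letters only.

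The control library gave 11516 cells and the knockout library 10467 after filtering and removal of doublets. A cell was taken as a tumour cell when it held at least 10 UMIs of the keratins Krt8, Krt18 and Krt19 and of Cdkn2a together and no UMI of Ptprc (leukocytes) or Pdgfra (fibroblasts). That gave 8499 tumour cells in the control (73.8% of cells, median 14269 UMIs) and 5190 in the knockout (49.6%, median 15823 UMIs). The labels name the cell type as tumour-infiltrating, whereas keratin-positive cells were the largest of the cell groups counted in both libraries, so what these shares say of the tumours is uncertain. Levels are given as CPM, the summed UMIs of a gene per 1000000 UMIs of all genes in the same cells, and pairs of values are control first and knockout second unless said otherwise. Of pancreatic cancer and duct genes that the rule did not use, Sox9 stood at 143 and 133 CPM and Msln at 258 and 181 in tumour cells, whereas Krt7 (9.81 and 3.67), Muc1 (9.78 and 8.54) and Cldn4 (0.589 and 1.61) were low. Fibroblasts, with Pdgfra and at least 20 UMIs of 5 collagen and proteoglycan genes, numbered 410 and 567. In macrophages Porcn itself had 6 UMIs in 256 control cells and 1 UMI in 385 knockout cells, too few to check the deletion, and whether the counted end of the gene lies in the deleted part is not given in the sources used here. The libraries shared 46 barcodes, 15 of them among tumour cells. Acinar enzyme RNA, a mark of normal pancreas, was higher in the knockout library in both cell types: the summed level of 7 markers was 24.95 and 411 CPM in tumour cells and 19.9 and 531 in fibroblasts, with Cela1 the most abundant in the control and Ctrb1 in the knockout. A single cell carried much of the knockout sums, with 12764 of 20422 Ctrb1 UMIs in tumour cells and 1191 of 1349 in fibroblasts, while 998 of 5190 tumour cells held a Ctrb1 UMI against 157 of 8499 in the control. The sums for other cell types in tumour cells were 46.7 and 49.3 for mesothelial markers (most of it Upk1b), 8.59 and 9.89 for macrophages (Lyz2), 1.55 and 4.07 for T cells (Trac), 5.84 and 2.65 for pericytes (Rgs5) and 3.102 and 2.14 for endothelium (Pecam1).

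Epcam (chr17:87635979-87651129, GRCm38), the surface protein most used to sort epithelial cells, was all but absent from these keratin-positive cells. Its level was 5.96 CPM (5.57 to 6.37) in control tumour cells and 15.7 (14.9 to 16.5) in knockout tumour cells. Only 86 of 8499 control cells (1.01%, exact binomial interval 0.810 to 1.25%) and 50 of 5190 knockout cells (0.963%, 0.716 to 1.27%) held even 1 Epcam UMI. In the control, 36 cells with 5 or more UMIs held 90.7% of all Epcam UMIs, and in the knockout 34 cells held 98.2%, up to 200 in a single cell. Fibroblasts, which should lack Epcam, had 1 UMI in each of 4 control cells and 1 knockout cell, so single Epcam UMIs in tumour cells cannot be told from free RNA, whereas 5 or more UMIs did not occur in fibroblasts. The knockout over control ratio was 2.64 (2.42 to 2.87), and nearly all of the UMIs behind it were in these few cells. With all cells that hold an Epcam UMI taken out it has no value, and without tumour clusters 8 and 9 of the 10 clusters described further on it was 1.21. It was 1.52 among tumour cells with no UMI of 5 fibroblast genes, and 5.21 with the clusters given the same weight in both libraries. Within cluster 8, which holds most Epcam, the levels were 148 and 830 CPM, a ratio of 5.60 (5.13 to 6.11). In that cluster 60 of 229 control and 36 of 58 knockout cells held an Epcam UMI. Among all tumour cells with 5 or more Epcam UMIs the levels were 865 and 1252 CPM. The intervals of these ratios treat UMIs as independent, although they clump in few cells.

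The few Epcam-positive cells that met the tumour rule carried a wider set of epithelial genes, scarce in the other cells that met it. The rule rests on keratin and Cdkn2a UMIs. Whether the Epcam-positive cells are implanted cancer cells or epithelial cells of the host was not tested. The tight junction gene Cldn7 stood at 197 (169 to 228) and 366 (332 to 402) CPM in control and knockout cells with 5 or more Epcam UMIs, but at 0.0703 (0.0337 to 0.129) and 0.0433 (0.0118 to 0.111) in the 8413 and 5140 cells with none. Cldn3 followed the same split, at 424 and 654 against 0.281 and 0.0541. The splicing factor Esrp1, which sets epithelial splice forms, was at 34.3 and 52.6 against 0.0984 and 0.0649, and the epithelial transcription factor Grhl2 at 51.0 and 58.6 against 0.766 and 0.930. Of 24 epithelial junction genes, 9 in the control and 10 in the knockout were under 1 CPM in cells without Epcam, and 8 and 9 of those were over 10 in the Epcam-positive cells. Of 16 epithelial regulators, 9 in each library were under 1 without Epcam, and 7 of these were over 10 with it. How many of all genes do the same was not counted, so these list counts have no background to be set against. The Epcam-positive cells were deeper, with medians of 20019 and 30162 UMIs against 14236 and 15787, and the part of depth was not tested. Cells were split by Epcam and then compared within a library, so these values describe the cells and carry no test.

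**Figure D1:**
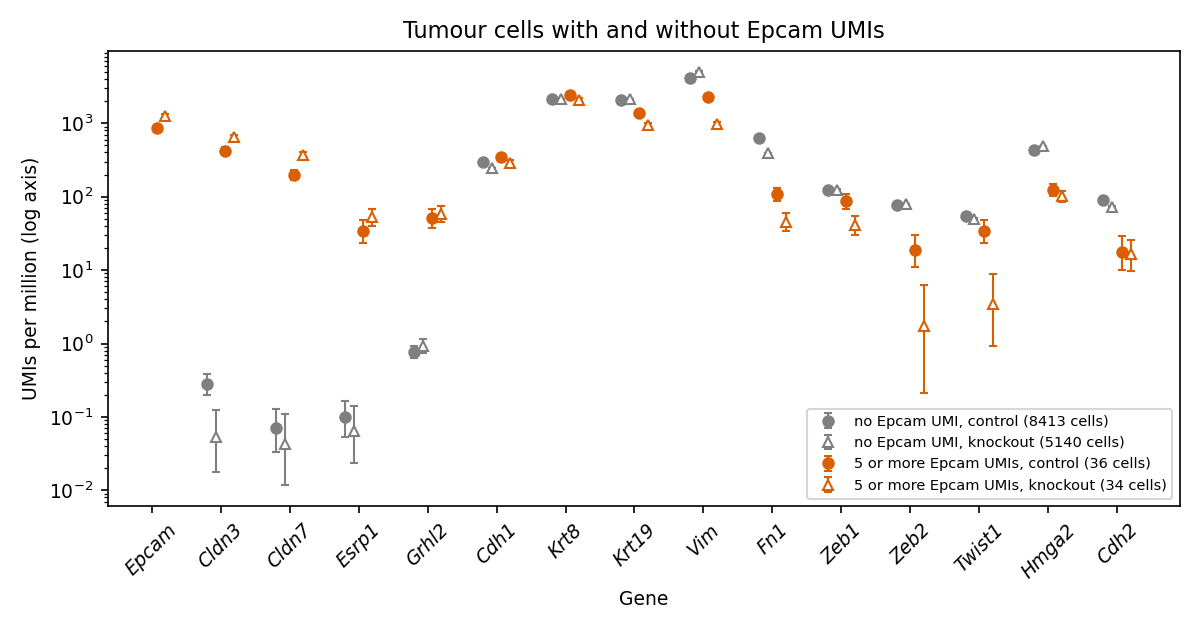
Levels of 15 genes in CPM (log axis) in tumour cells with no Epcam UMI (grey) and with 5 or more (orange), control as filled circles and knockout as open triangles, with 95% counting intervals. Cldn3, Cldn7, Esrp1 and Grhl2 differ between the cell sets by more than 1 log10 unit in both libraries, whereas Cdh1 and Krt8 lie close together. Krt19 is lower in the orange set in both libraries. Krt8 and Krt19 are part of the rule that both sets had to meet. Epcam is 0 by choice in the grey set and is not drawn there.

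Members of the mesenchymal side were lower in the Epcam-positive cells. Vim was at 2262 (2165 to 2362) and 970 (914 to 1028) CPM in control and knockout cells with 5 or more Epcam UMIs, against 4152 and 5067 in those with none. Fn1 was at 107 and 45.7 against 624 and 389. Hmga2 was at 124 and 101 against 431 and 485, and Zeb2 at 18.8 and 1.72 (2 UMIs) against 77.8 and 78.6. Of the genes whose sum defines the tumour cells in both sets, Krt8 was at 2448 and 2102 against 2128 and 2127. Krt18 was at 2296 and 2744 against 1779 and 2000, and Krt19 at 1379 and 951 against 2068 and 2143. Cdkn2a was at 224 and 84.5 against 493 and 395. Acinar RNA was high in this set in the knockout, with Ctrb1 at 5104 CPM against 18.7 in cells without Epcam, and at 21.0 against 1.57 in the control. In the wider set of 86 and 50 cells with at least 1 Epcam UMI, the median was 1 acinar UMI in each library, so few cells carried it in the knockout. The fibroblast gene Col3a1 was at 259 against 56.4 in the control and at 6.90 against 18.0 in the knockout, and its part was not tested. Of the cells with an Epcam UMI, 6 in the control and 5 in the knockout held 10 or more acinar UMIs, and without all such cells the Epcam ratio was 2.57.

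Cdh1 (chr8:106603351-106670246), which encodes E-cadherin, was kept where Epcam was not. Its level was 296 CPM (293 to 299) in control tumour cells and 246 (243 to 250) in knockout tumour cells, a ratio of 0.832 (0.819 to 0.846). Fibroblasts were at 4.58 and 4.74, so tumour cells had 64.7-fold (44.1 to 99.05) and 52.0-fold (35.7 to 78.9) more. With each cell thinned to 3000 UMIs, 55.4% of control and 48.9% of knockout tumour cells held a Cdh1 UMI (89.9% and 84.0% at full depth), against 1.76% and 1.46% of fibroblasts. The thinning left out 96 and 75 shallower tumour cells and 13 and 19 fibroblasts. Cells with 5 or more Epcam UMIs and cells with none were close in Cdh1, at 342 (305 to 383) and 296 (293 to 299) in the control and at 287 (257 to 320) and 246 (243 to 249.2) in the knockout. Other parts of the same adhesion complex were present in the cells without Epcam as well, with the catenin genes Ctnna1 at 294 and 262 and Ctnnd1 at 161 and 148.

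Cdh2 (chr18:16588877-16809246), the N-cadherin gene that mesenchymal cells use in place of E-cadherin, was measured in the same cells. It stood at 88.2 CPM (86.6 to 89.7) in the control and 72.0 (70.3 to 73.7) in the knockout, a ratio of 0.816 (0.792 to 0.841). Both cadherins were therefore lower in the knockout by close to the same factor. After thinning, 12.2% of control and 8.93% of knockout tumour cells held UMIs of both, where the product of the single shares, 11.9% and 8.67%, lies within the interval of each (11.5 to 12.9% and 8.17 to 9.75%).

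Vim (chr2:13573927-13582826) was more abundant in the tumour cells than in the fibroblasts. Tumour cells were at 4126 CPM (4116 to 4137) in the control and 5014 (5000 to 5029) in the knockout, and fibroblasts at 2623 and 1951. The tumour level was 1.57-fold (1.55 to 1.599) the fibroblast level in the control and 2.57-fold (2.52 to 2.62) in the knockout. After thinning, 99.4% of tumour cells in each library held a Vim UMI, with a median of 10 UMIs per cell in the control and 13 in the knockout. Fibroblast RNA was measured in the same cells. Of 9 fibroblast markers, the one highest in tumour cells relative to fibroblasts reached 0.986% of its fibroblast level in the control (Pdgfrb) and 0.369% in the knockout (Fbln1), and at that share fibroblast Vim would make up 0.627% and 0.144% of the tumour level. The same share would make up 6.001% and 3.21% of Fn1 and 5.58% and 3.22% of Zeb2. A further marker, Col6a1, stood apart at 29.99% and 29.9% of its fibroblast level and was found in 7304 of 8499 and 4249 of 5190 tumour cells. At its share fibroblast RNA would make up 19.1% and 11.6% of Vim, but 183% and 260% of Fn1 and 170% and 261% of Zeb2. For Zeb1 it would be 48.7% and 103%. Whether the Col6a1 RNA in tumour cells is their own was not tested.

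Fn1 (chr1:71585520-71653200) encodes fibronectin, a matrix protein that fibroblasts make in bulk. Tumour cells were at 619 CPM (615 to 623) in the control and 384 (380 to 388) in the knockout, a ratio of 0.621 (0.613 to 0.629). Fibroblasts were at 3767 and 3339, which is 6.09-fold and 8.69-fold above the tumour cells. After thinning, 61.1% of control and 49.1% of knockout tumour cells held a Fn1 UMI. The ratio moved with the choice of tumour cells. Without the 296 control and 29 knockout cells of cluster 7 it was 0.673. With the clusters given the same weight in both libraries it was 0.767, where cluster 7 enters with 29 knockout cells at 3321 CPM. Both values are short of the 1.5-fold mark. Within the clusters Fn1 was lower in the knockout in 9 of 10. Of 10 fibroblast markers, with Col6a1 in place of the rule gene Pdgfra, 8 were also lower past 1.5-fold in knockout tumour cells, beside 7.98% of all genes. Their summed level was 465 and 325 CPM, of which Col6a1 alone made 313 and 271. In the tumour cells without any UMI of the 5 fibroblast genes, 4683 and 3578 cells, the Fn1 ratio was 0.645.

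The transcription factors were present at lower counts. Zeb1 (chr18:5591860-5775467) and Zeb2 (chr2:44983632-45117395), related zinc finger repressors of epithelial genes, were level between the libraries in tumour cells. Zeb1 stood at 124 (122 to 125) and 122 (120 to 124) CPM, a ratio of 0.989 (0.966 to 1.01). Zeb2 stood at 77.0 (75.6 to 78.5) and 77.5 (75.8 to 79.3), a ratio of 1.01 (0.977 to 1.04). Fibroblasts had more of both: 200 and 422 for Zeb1, and 436 and 676 for Zeb2, the latter 5.66-fold and 8.72-fold above tumour cells.

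Twist1 (chr12:33957671-33959829), a basic helix-loop-helix factor that binds E-boxes, was at 54.7 (53.5 to 55.9) and 49.8 (48.4 to 51.2) in control and knockout tumour cells, a ratio of 0.911 (0.878 to 0.944). In fibroblasts it was at 88.0 and 40.3, so tumour cells were below the fibroblasts in the control and above them in the knockout. Snai2 (chr16:14705852-14709385), the Slug repressor, was scarce. It had 566 and 297 UMIs in all tumour cells, 3.92 (3.60 to 4.26) and 3.16 (2.81 to 3.54) CPM, and 1.01% and 0.704% of thinned cells held 1. Its ratio of 0.806 (0.698 to 0.929) was 1.06 among tumour cells without fibroblast UMIs and 0.989 without cluster 7. Fibroblasts had 11.6 and 9.12.

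Hmga2 (chr10:120361275-120476469) set tumour cells apart from fibroblasts about as far as Cdh1 did. It was at 427 CPM (424 to 431) in control and 479 (475 to 483) in knockout tumour cells, a ratio of 1.12 (1.11 to 1.13), against 7.39 and 10.4 in fibroblasts. The tumour over fibroblast ratio was 57.8 (42.8 to 80.2) in the control and 46.3 (35.9 to 60.8) in the knockout. After thinning, 49.1% and 55.2% of tumour cells held a UMI, against 2.27% and 2.74% of fibroblasts and 1.10% and 2.90% of T cells. The upper tail was long, with the top 1% of control tumour cells at 9 or more UMIs where the median was 0.

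**Figure D2:**
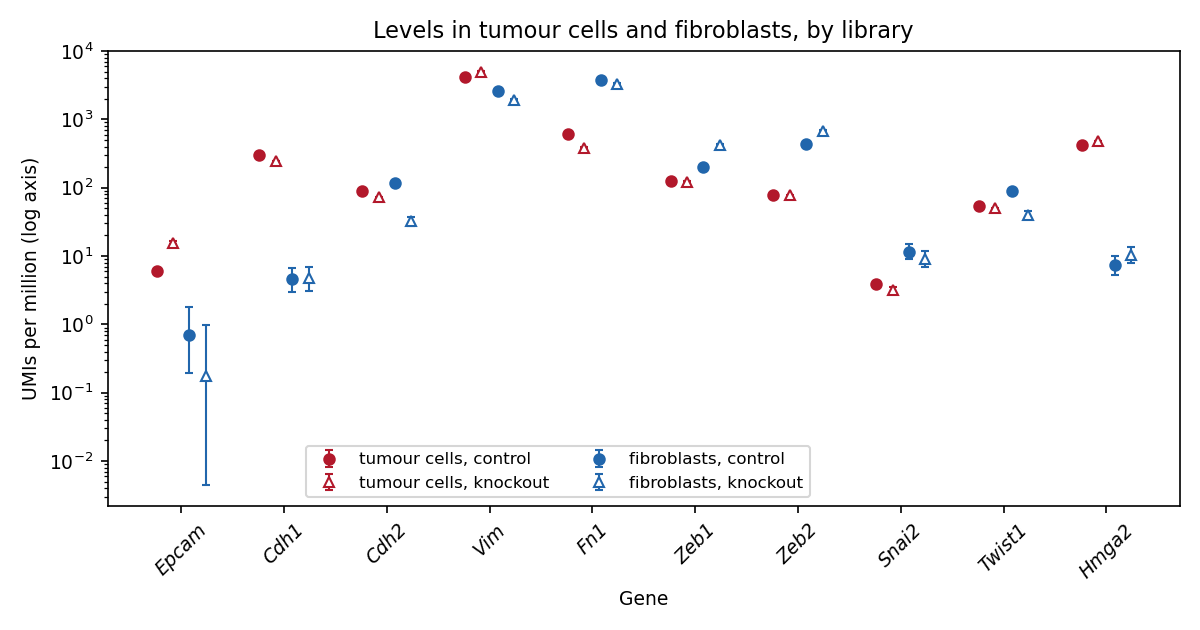
Levels of the 10 genes in CPM (log axis) in tumour cells (red) and fibroblasts (blue), control as filled circles and knockout as open triangles, with 95% Poisson intervals. Cdh1 and Hmga2 are far higher in tumour cells, Fn1 and Zeb2 higher in fibroblasts, and Vim is higher in tumour cells than in fibroblasts in both libraries.

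Against fibroblasts, the same 5 members were past 4-fold in both libraries. Epcam, Cdh1 and Hmga2 were higher in tumour cells and Fn1 and Zeb2 lower, where 20.3% of 16626 genes in the control and 23.2% of 16125 in the knockout passed 4-fold in either direction (7.47% and 8.91% higher, 12.9% and 14.3% lower). Epcam passes in the control on 4 fibroblast UMIs (8.47-fold, 3.30 to 31.2) and in the knockout on 1 (89.6-fold, 16.1 to 3543). It was under 4-fold in the control when each cell's own share was averaged or cells were thinned, and in both libraries without clusters 8 and 9 or without the cells that hold an Epcam UMI. Cdh2 and Twist1 lay on opposite sides of the fibroblasts in the 2 libraries. Cdh2 in tumour cells was 0.764-fold (0.706 to 0.827) the fibroblast level in the control and 2.23-fold (1.93 to 2.60) in the knockout, and Twist1 0.621-fold (0.567 to 0.681) and 1.23-fold (1.08 to 1.41). For both genes the libraries lay further apart in fibroblasts than in tumour cells.

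Between the libraries, 2 of the 10 members were past 1.5-fold in tumour cells, Epcam higher and Fn1 lower in the knockout. Of 17222 genes with at least 20 UMIs, 15.2% were past 1.5-fold, and 2 in 10 is near that share. Many of those genes were sparse, and among the 10329 genes with at least 1000 UMIs the share was 3.63%, which 2 in 10 is above. All members but Snai2 (566 and 297 UMIs) reached 1000 UMIs. A count of 2 is too small to read further. The median log2 ratio was -0.08 for the members and -0.07 for all genes. At a fold of 2, Epcam alone passed.

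In fibroblasts, 4 of the 9 members with at least 20 UMIs were past 1.5-fold, beside 26.1% of 12496 genes. Among the 1805 genes with at least 1000 UMIs the share was 19.0%. Of the 4, Cdh2 (656 and 184 UMIs) and Twist1 (500 and 230) did not reach 1000. The count is too small to read further. Zeb1 was 2.11-fold (1.96 to 2.26) and Zeb2 1.55-fold (1.47 to 1.63) higher in the knockout, and Cdh2 at 0.280 (0.236 to 0.330) and Twist1 at 0.459 (0.391 to 0.537) of the control. Vim was lower at 0.744 (0.725 to 0.762) and Fn1 at 0.886 (0.869 to 0.904), in the case of Vim the opposite of the tumour cells, where the ratio was 1.22 (1.21 to 1.22). Averaging each cell's own share, or thinning the cells, left Zeb2 under 1.5-fold. Cdh1, Snai2 and Hmga2 in fibroblasts had intervals that include 1, and Epcam with 5 UMIs was not compared.

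**Figure D3:**
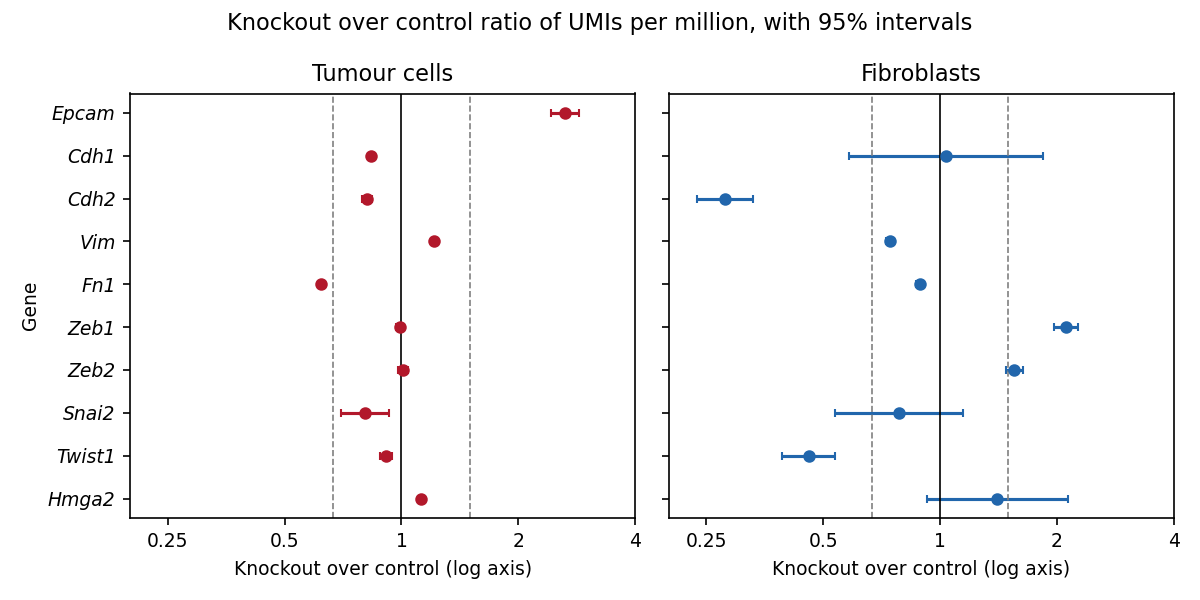
Knockout over control ratio of CPM (log axis) for each gene in tumour cells (left) and fibroblasts (right), with exact 95% counting intervals; dashed lines mark 1.5-fold in each direction. In tumour cells only Epcam and Fn1 lie outside the dashed lines, and in fibroblasts Cdh2, Twist1, Zeb1 and Zeb2 do; Epcam in fibroblasts (5 UMIs) is left out.

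The tumour cells fell into 10 clusters, made from 1917 variable genes that exclude the members and the listed genes. They are named by number, with leading genes. Cluster 0 led with Sult1a1, Ugt2b34, Spink4, Ttc36 and Cxcl15. Cluster 1 led with Mgarp, Hilpda, Havcr2 and Hmox1, of which Mgarp and Hilpda are known hypoxia genes. Cluster 2 led with Tnr, Fer1l6, Pik3c2g and the gastric mucin Muc5ac, and cluster 3 with Adamts1, Cxcl12, Tmeff2, Gulp1 and Cyp1b1. Cluster 4 led with Slurp1, Lgals2, Glod5, Crip2 and Nudt14. Cluster 5 led with the interferon genes Cxcl10 and Cxcl9 and with Serpina3g, Ubd and Apol6. Cluster 6 led with the cell cycle genes Hist1h2af, Hist1h3c, Esco2, Ccna2 and Aurkb. Cluster 7 led with Crabp2, Gm2115, Serpinf1, Bnc2 and Rnf150, and cluster 8 with Gpx2, Epcam, Tmprss4, Myh14 and Pigr. Cluster 9 led with Lrrn4, Hmcn1, Slpi, Ptgis and Rspo1, and its Upk3b (137 CPM) is a mesothelial marker. Epcam appears as a leading gene of cluster 8 because leading genes were taken from all genes.

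The members varied more between these clusters than between the libraries. Epcam was at 314 CPM in cluster 8, which held 93.4% of its control and 97.8% of its knockout UMIs, and at 0.0483 to 1.24 in clusters 0 to 7. Cdh1 ran from 63.9 in cluster 7 to 424 in cluster 2, a 6.63-fold range, and Vim from 1795 in cluster 8 to 5974 in cluster 1. Fn1 had the widest range after Epcam and Zeb2, 13.5-fold, from 148 in the cycling cluster 6 to 1996 in cluster 7. Zeb2 ran 15.1-fold from 11.3 in cluster 8 to 170 in cluster 7. Zeb1 ran from 42.9 in cluster 4 to 195 in cluster 3, and Cdh2 from 30.5 in cluster 8 to 132 in cluster 3.

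Cluster 7 stood at one end for 6 of the 10 genes. It had the lowest Cdh1 and the highest Fn1, Zeb2, Snai2 (17.7), Twist1 (104) and Hmga2 (1353) of the 10 clusters, while its Vim (4481) was near the level of all tumour cells. Its Krt8 was 1457 and its Cdkn2a 984. Col3a1, a fibroblast marker, stood at 447 in its control cells and 135 in its knockout cells, against 58.3 and 17.8 in all tumour cells and 15040 and 11129 in fibroblasts, and its part in these values was not tested. The cluster was 3.48% of control and 0.559% of knockout tumour cells, 296 and 29 cells.

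**Figure D4:**
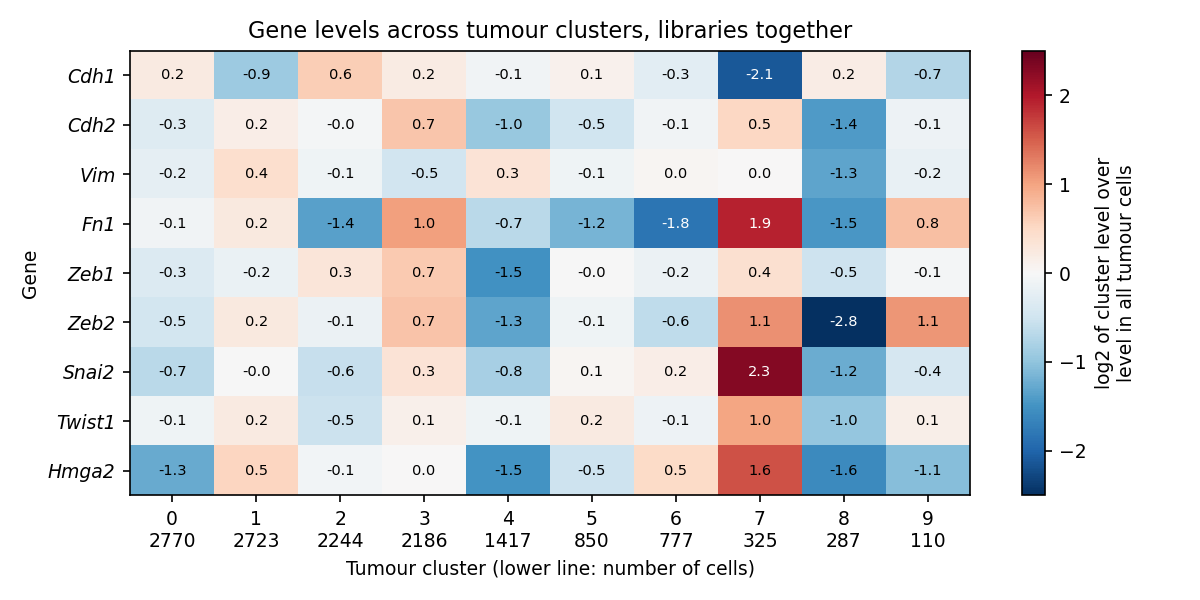
Levels of the 9 members other than Epcam in each tumour cluster (columns, with the number of cells), as log2 of the cluster's CPM over the level in all tumour cells, libraries together; red is higher and blue lower. Cluster 7 shows the lowest Cdh1 with the highest Fn1, Snai2, Twist1 and Hmga2, and cluster 8 shows the lowest Vim, Zeb2, Twist1, Cdh2, Snai2 and Hmga2.

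Across clusters 0 to 7, 8 points that share libraries and leave out the clusters with Epcam and mesothelial genes, Cdh1 was ordered against Vim (Spearman rho -0.74), Hmga2 (-0.64) and Twist1 (-0.62), and had no order with Zeb1 (0.05). Cdh2 was ordered with Zeb2 (0.81), Hmga2 (0.79) and Zeb1 (0.76), and Zeb1 with Snai2 (0.81). Vim and Fn1 were not ordered together (-0.12). These values describe 8 clusters only.

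Within the clusters, the direction between libraries was the same for the cadherins. Cdh1 was lower in the knockout in 10 of 10 clusters, with intervals below 1 in 9, and its ratio ran from 0.552 in cluster 7 to 0.939 in cluster 3. Cdh2 was also lower in 10 of 10, with intervals below 1 in 9. Fn1 was lower in 9 of 10, from 0.235 in cluster 8 to 0.793 in cluster 1, and higher in cluster 7, at 1919 and 3321 CPM (ratio 1.73, 1.64 to 1.83) on 29 knockout cells. Vim was higher in 8 of 10 and lower in clusters 7 (0.848) and 8 (0.756). Hmga2 was higher in 6 and lower in 4. Cells in a cluster come from the same pools, so these counts are no replication. Cluster 1, where Vim was highest and Cdh1 low (147), took 14.2% of control and 29.2% of knockout tumour cells, and cluster 0 took 24.9% and 12.5%.

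The members also varied with how much keratin a cell held. In tumour cells with 10 to 14 UMIs of the 4 rule genes, Fn1 was at 1461 and 832 CPM in control and knockout, and in cells with 100 or more at 364 and 216. Zeb2 went the same way, from 162 and 172 to 58.3 and 56.4. Vim ran in the other direction, from 2529 and 3178 to 4668 and 5468. Just outside the rule, in cells with 5 to 9 UMIs, Fn1 was at 1481 and 725, Cdh1 at 232 and 213 and Hmga2 at 437 and 621. The bands are set by the genes that define the tumour cells, and Col3a1 was lower along them too, from 257 and 132 in the band of 10 to 14 to 41.8 and 9.0005 in that of 100 or more. The 551 and 348 cells just outside had Col3a1 at 873 and 284 and median depths of 4789 and 5185 UMIs. Median depth was 6730 and 7408 UMIs in the band of 10 to 14 and 21999 and 21855 in that of 100 or more. The part of Col3a1 RNA and of depth was not tested.

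**Figure D5:**
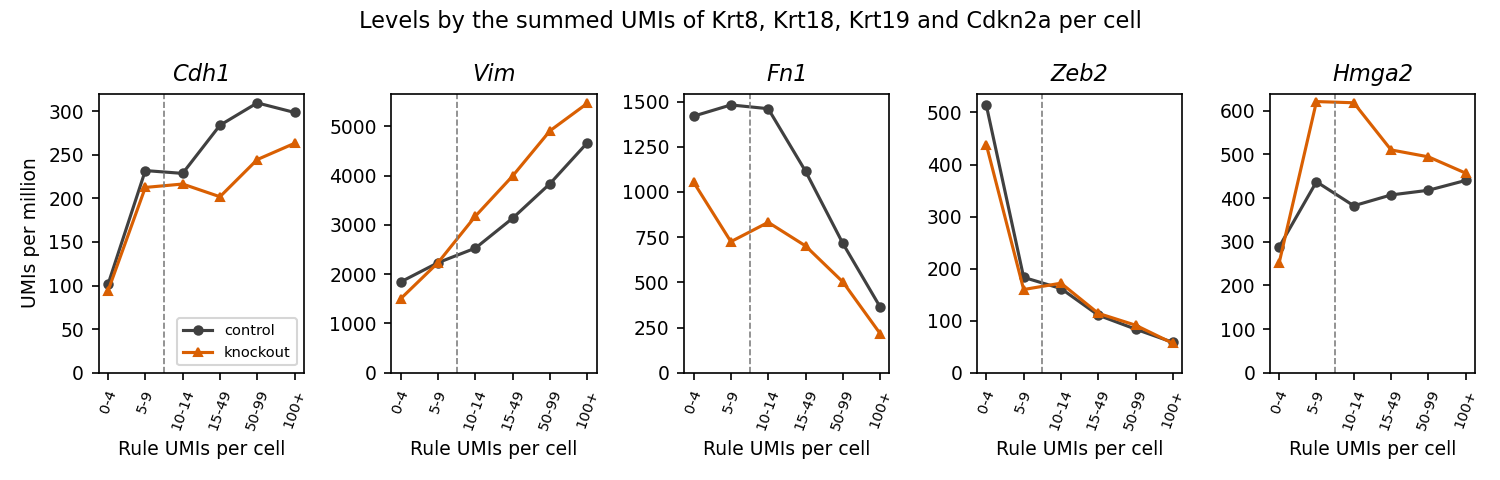
Levels of Cdh1, Vim, Fn1, Zeb2 and Hmga2 in CPM, in Ptprc-negative and Pdgfra-negative cells grouped by the summed UMIs of Krt8, Krt18, Krt19 and Cdkn2a per cell, control (dark circles) and knockout (orange triangles); the dashed line marks the 10 UMIs that define tumour cells. From left to right among tumour cells, Vim is higher and Fn1 and Zeb2 are lower in both libraries.

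Epithelial and mesenchymal RNA were found together in many tumour cells, at a share that depends on depth. After thinning to 3000 UMIs, 55.2% of control tumour cells (54.1 to 56.3%) and 48.5% of knockout tumour cells (47.1 to 49.9%) had an Epcam or Cdh1 UMI and a Vim UMI, against 2.27% and 1.64% of fibroblasts and 6.59% and 9.70% of T cells. At full depth the tumour shares were 89.8% and 83.9%. As nearly every tumour cell held Vim, these shares follow Cdh1. Thinned to 6000 UMIs, the 1931 control and 1642 knockout tumour cells without a Cdh1 UMI had more Fn1 (930 and 520) than cells with 3 or more (592 and 356). Hmga2 was also higher in them, 511 and 536 against 311 and 376, and so was Vim, 4231 and 5487 against 3635 and 4108. Of the repressors, Twist1 was higher in the cells without Cdh1, 67.0 and 58.4 against 46.2 and 44.3. Zeb2 was at 99.3 and 88.0 against 74.7 and 82.7, and the scarce Snai2 at 4.92 and 3.35 against 1.78 and 2.22. For Zeb2 and Snai2 the intervals overlap in the knockout. Zeb1 went the other way and was lower in the cells without Cdh1, 114 and 105 against 135 and 142. Krt8 was lower in them as well, 1510 and 1358 against 2386 and 2376.

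Other genes of the programme were followed in lists. Of 28 mesenchymal genes, 0 were higher and 10 lower past 1.5-fold in knockout tumour cells, beside 7.23% higher and 7.98% lower of all genes, with a median log2 ratio of -0.33. The lowest were the contractile genes Tagln (1.91 and 0.340 CPM, control and knockout) and Acta2 (5.98 and 1.46), both far below their fibroblast levels of 123 and 139 in the control. Fibroblast markers were lower in the same cells, as given with Fn1, and their part here was not tested. Of 12 other transcription factors of the programme that were measured, 0 were higher and 3 lower. Among them were Sox11 (0.125 and 0.0319, the latter only 3 UMIs) and Prrx1 (0.672 and 0.308). None of 5 genes of the Hmga2 and let-7 axis passed.

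Of 24 epithelial junction genes, 7 were higher and 5 lower past 1.5-fold in knockout tumour cells, beside 7.23% higher and 7.98% lower of all genes. Their median log2 ratio was -0.14. Among those higher was Cldn7 (1.33 and 4.63), of which cells without an Epcam UMI held 10 and 4 UMIs. The lowest were the polarity gene Crb3 (6.18 and 2.88) and the desmosome gene Pkp3 (3.36 and 2.04). Of 15 epithelial regulators, 6 were higher, led by Rab25 (0.485 and 1.68) and Prss8 (0.208 and 0.659). In cells without an Epcam UMI both were near 0 in each library, Rab25 at 0.0633 and 0.0757 and Prss8 at 0.0281 and 0.0324. The 3 that were lower included Elf3 (22.8 and 11.5) and Esrp2 (4.81 and 2.70).

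Much of the mesenchymal list was lower in tumour cells than in fibroblasts, and a few of its genes were higher. Of 27 genes, 16 in the control and 14 in the knockout were lower past 4-fold, beside 12.9% and 14.3% of all genes. Higher past 4-fold were 2 and 3 of them, beside 7.47% and 8.91% of all genes. The matrix gene Postn was at 1.12 and 0.659 CPM in tumour cells and 932 and 606 in fibroblasts, Mmp2 at 1.68 against 721 in the control, and Col5a2 at 1.595 against 1071 in the knockout. S100a4, often called fibroblast-specific protein, went the other way, at 1786 and 1861 in tumour cells against 215 and 44.4 in fibroblasts, as did the filament gene Nes (22.3 and 10.8 against 1.58 and 0.526). Of the other factors, Prrx1 was at 0.672 and 0.308 against 297 and 323, Gsc at 0.00692 (1 UMI) and 0.0213 (2 UMIs) against 3.34 and 8.25, and Sox9 at 143 and 133 against 22.7 and 18.9. The let-7 targets Igf2bp1 (12.6 and 11.7) and Hmga1 (39.2 and 54.2) were higher in tumour cells than in fibroblasts (0.352 and 0.526, and 2.11 and 1.58), and 4 of 4 and 3 of 4 measured genes of that axis were past 4-fold. Of the epithelial junction genes, 9 of 23 in the control and 16 of 24 in the knockout were higher past 4-fold in tumour cells, with Pkp2 at 38.6 against 1.06 and Crb3 at 6.18 against no fibroblast UMI in the control, and Dsg2 at 77.1 against 2.63 and Cldn7 at 4.63 against none in the knockout. Cdh3 alone was lower, at 0.582 and 0.372 against 14.8 and 6.32. Of the epithelial regulators, 8 of 13 and 9 of 14 were higher and 0 lower. Among them, Foxa2 was at 115 and 100.5 against 1.58 and 1.05, and Elf3 at 22.8 and 11.5 where no fibroblast held a UMI.

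In fibroblasts 12 of 26 mesenchymal genes were lower and 1 higher in the knockout, beside 9.34% lower and 16.7% higher of all genes. The lowest were Acta2 (139 and 27.4), a marker of contractile fibroblasts, and Tgfbi (92.6 and 18.2), and the 1 that was higher was Fbn1 (1414 and 2168). Of 11 other factors, 2 were higher, Gsc (3.34 and 8.25) and Tcf4 (198 and 379), and 4 lower, among them Snai1 (41.4 and 25.3). Of 13 epithelial junction genes, 2 were higher, Pkp2 (1.06 and 3.51) and Jup (8.80 and 14.4), and 5 lower, led by Dsg2 (19.7 and 2.63) and Cldn3 (4.22 and 0.702). Spint2 (9.50 and 5.26) was the lower of 2 epithelial regulators measured, and the only 1 past 1.5-fold, and Igf2bp3 (4.05 and 10.0), of the let-7 axis, was higher. Whether the libraries hold different kinds of fibroblast was not tested.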

How the data were processed

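Single-cell RNA was measured in 2 libraries, control and knockout, each 5 mice pooled. The deposited matrices hold raw UMI counts per gene and cell; Cell Ranger 8.0.0 made them per the file headers, whereas the submitters' processing notes name Cell Ranger 3.1.3 and build mm10. Whether reads in introns were counted is not given in the sources used here, which matters most for the long genes Hmga2, Cdh2, Zeb1 and Zeb2. Total counts were 173934025 and 137527647 UMIs over 13766 and 12251 barcodes. Barcodes under 500 genes or over 15% mitochondrial UMIs were dropped, and Scrublet in scanpy 1.11.5 (expected rate 0.08) removed 148 and 341 doublets. Counts were summed over cells and expressed as CPM, per 1000000 UMIs. Levels carry exact Poisson intervals, ratios exact conditional intervals and shares Clopper-Pearson intervals at 95%, which cover counting error only. Log2 ratios used a pseudocount of 1 UMI and genes with at least 20 UMIs. The ratio and its interval were tested on simulated Poisson counts. These share the interval's own model and leave out the clumping of UMIs in single cells that Epcam shows. Tumour cells were clustered by Leiden (resolution 0.5, 30 components, 15 neighbours). No test was made, as each group is 1 library.

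The members and lists were chosen with earlier results of these data known. All members are named; of each list, the 2 highest and 2 lowest genes past the fold in a comparison are named by rule, and of each marker list the most abundant; other genes named were chosen after their values were seen. Some genes that these rules name are not reported here. Gene positions are from GENCODE on GRCm38 and promoters from RefSeq. The alternatives were cell filters, the tumour rule, doublets, thinning, cell weighting, cluster weights, the fibroblast rule and the fold.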

Additional observations from a re-analysis of the deposited data

How the results depend on the processing

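No paired analysis was possible because each group is 1 library with no replicate number, and for the same reason no replicate could be left out. In tumour cells the count of members past 1.5-fold was 2, and it was 1 with clusters weighted alike, at a fold of 2, without cluster 7, without clusters 8 and 9, and without the cells that hold an Epcam UMI. The last 3 of these were chosen after seeing the data, as was leaving out cells with acinar UMIs, which kept 2. Fn1 is lost with weighted clusters, at a fold of 2 and without cluster 7, and Epcam in the other 2 settings. The counts in fibroblasts (3 to 5) and between tumour cells and fibroblasts (4 to 6) stayed within 1.5 times of those reported. The share of tumour cells with Epcam or Cdh1 and Vim was 75.6% and 66.9% when thinned to 6000 UMIs, 89.8% and 83.9% unthinned, and 57.7% in the control without cells with fibroblast UMIs. Over 14 alternatives, or 13 for Epcam, 8 members kept their direction in each. Zeb1 crossed 1 in 3 (0.979 to 1.03) and Snai2 in 1 (0.718 to 1.06), and Epcam ranged from 1.21 to 5.21. Snai2 rests on 566 and 297 UMIs, and Epcam on 36 and 34 cells that hold 90.7% and 98.2% of its UMIs. The single library per group limits every comparison.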

Other observations

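Outside the tumour cells and fibroblasts, members marked other cells of the tumours. Zeb2 was at 1309 and 1426 CPM in control and knockout macrophages and at 1572 and 1974 in 48 and 9 pericyte-like cells, above the 77.0 and 77.5 of the tumour cells. Fn1 in macrophages was at 1212 and 505, a knockout over control ratio of 0.416 (0.388 to 0.447) on 256 and 385 cells, which is the direction seen in tumour cells. It was also lower in T cells, at 200 and 62.6 (ratio 0.313, 0.259 to 0.381), where 1 control cell held 79 of 145 UMIs. Endothelial cells went the other way, at 322 and 805 on 45 and 28 cells. In the knockout 7 of these held all 160 UMIs, with 65 in 1 cell, and in the control 15 held 106 UMIs. The part of free RNA in these Fn1 values was not tested. Zeb1 in T cells was at 138 and 211.

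Epcam was also found in lymphocytes. In T cells it had 2 UMIs in 147 control cells and 122 UMIs in 1473 knockout cells, and 5.84% of the latter held at least 1. In cells with B cell markers it was found in 25 of 33 control and 86 of 525 knockout cells, at 174 and 57.9 CPM and median depths of 15976 and 3445 UMIs. The share among fibroblasts, which should lack the gene, was 0.976% and 0.176% at median depths of 11954 and 9427 UMIs.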
